A study of Mus musculus with 12 samples.

Results

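The constitutive proteasome genes were measured in mouse bone marrow-derived macrophages, which are macrophages grown from marrow in medium conditioned by L929 cells, with and without the histone deacetylase Hdac3. Genes were taken by symbol: every symbol beginning with Psma, Psmb, Psmc, Psmd, Psme, Psmf or Psmg entered, except the 5 inducible subunits Psmb8, Psmb9, Psmb10, Psme1 and Psme2, with the brightest probe set per symbol. This gave 45 genes of 19945 measured. The 4 groups were Hdac3 -/- macrophages given LPS, Hdac3 -/- macrophages left untreated, Hdac3 +/- macrophages given LPS and Hdac3 +/- macrophages left untreated, with 3 arrays each. LPS, a component of the outer membrane of bacteria that macrophages sense, was given at 100 ng/ml for 4 h, and all cells were of strain C57BL/6 on day 7 of culture. The submitters call the +/- cells wild type, although they carry 1 intact allele, so each genotype difference below is against heterozygous cells. The labels give neither the means by which Hdac3 was deleted nor the number, age or sex of the animals, and do not say that replicates came from separate animals or cultures, so the p-values measure the spread between these arrays.

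The proteasome is the protease that degrades ubiquitin-tagged proteins. Its 20S core is a barrel of outer alpha rings and inner beta rings, and the active sites lie on the beta subunits Psmb5, Psmb6 and Psmb7. The 19S particle caps the barrel: its base holds the ATPases that unfold substrates, and its lid removes ubiquitin. In macrophages exposed to interferon or microbial products, newly made cores can carry the inducible subunits Psmb8, Psmb9 and Psmb10 in place of the constitutive active sites, which alters the peptides made for antigen presentation.

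Values are the deposited log2 signals, on which 1 unit is a 2-fold difference, and signals of different probe sets are not compared. A gene was counted as changed at an adjusted p under 0.05 (limma, Benjamini-Hochberg over all 19945 genes). The Hdac3 probe set read 6.91, 7.25 and 7.18 in -/- arrays after LPS and 7.39, 7.52 and 7.39 in untreated -/- arrays, against 8.90, 9.02 and 8.66 in +/- arrays after LPS and 9.42, 9.10 and 8.98 in untreated +/- arrays. It was lower in -/- macrophages by an adjusted p of 5.9e-06 after LPS and 1.66e-05 untreated, and where its probes lie relative to the deletion is not given. Array medians lay between 5.19 and 5.37. The interquartile range of an array was 3.39 to 3.70 in the -/- LPS group and 3.59 to 3.74 in the -/- untreated group, against 3.19 to 3.49 in the +/- LPS group and 3.52 to 3.80 in the +/- untreated group. The 9 macrophage markers measured had group means between 6.58 (Mertk) and 13.47 (Lyz2). Of these 9, 0 were higher and 1 lower in -/- than in +/- macrophages after LPS, with differences between -2.41 and 0.21. Untreated, 0 were higher and 1 lower, with differences between -1.45 and 0.30. After LPS 3 were higher and 3 lower in +/- macrophages, and 2 were higher and 1 lower in -/- macrophages. The 32 measured markers of neutrophils, dendritic cells, B cells, T and NK cells, fibroblasts and erythroid cells had group means between 2.59 and 6.49, apart from the neutrophil gene S100a8, whose means were 9.23 and 7.07 in -/- macrophages after LPS and untreated, against 7.27 and 5.03 in +/- macrophages after LPS and untreated. Of these 32, 0 were higher and 2 lower in -/- than in +/- macrophages after LPS (Xcr1 and Dcn), 0 were higher and 2 lower untreated, and 4 were higher after LPS in +/- macrophages. Their part in the results was not tested. Replicate 1 of both +/- groups had mean signals of 7.10 (LPS) and 7.27 (untreated) for Y-linked genes, against 2.58 to 3.07 on the other 10 arrays, and Xist signals of 3.20 and 3.93, against 9.67 to 10.97.

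The symbols hold more than constitutive subunits of the complex. Of the 45 genes, 7 encode alpha ring and 7 beta ring subunits, 9 the base and 8 the lid of the 19S particle, 7 are assembly chaperones and 3 are activators or inhibitors of the core. Another 2 are core subunits of single tissues: Psma8 of testis and Psmb11 of thymus. The remaining 2 match by symbol alone, since Psmc3ip is a factor of meiotic recombination that was named for binding Psmc3, and Psme3ip1 was named for binding Psme3. The probe sets of Psma8 and Psmb11 had mean signals of 4.37 and 4.56 over the 12 arrays, and a filter on dim probe sets that was tried as an alternative removed both. For 5 genes the table held several probe sets, 3 for Psma3 and 2 each for Psma5, Psmb3, Psmc1 and Psmd2. The probe sets of Psma3 differed in the sign of the -/- minus +/- difference after LPS (-0.03, -0.38 and 0.15), and those of Psmb3 in the sign of the LPS difference in +/- macrophages (-0.04 and 0.20). The other genotype and LPS differences of these 5 genes had the same sign on all their probe sets.

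After 4 h of LPS, 8 of the 17 genes of the 19S particle, 2 of the 7 chaperone genes (Psmd5 and Psmg1) and Psmb6 of the core were higher in -/- than in +/- macrophages, and the alternative cap Psme4 was lower. Of the 45 genes 11 were higher and 1 was lower, against 9.69% of all genes higher and 5.99% lower. The 11 are 24.4% of the genes. The share of calls varied with signal: in the brightest 25% of all genes, which held 37 of the 45, 17.2% were higher and 11.8% lower, and of these 37 genes 10 were higher (27.0%). The median difference over the 45 genes was 0.36, against -0.04 over all genes and 0.14 over the brightest 25%. Of the 45 differences 37 were above 0, against 8987 of 19945 over all genes. At an unadjusted p under 0.05, 24 were higher and 1 was lower, against 3342 and 2420 of all 19945 genes. The arrays of both genotypes did not overlap for 23 genes that were higher and 1 that was lower in -/- macrophages, against 17.3% and 14.5% of all genes. In bulk RNA, fewer cells of a type and less RNA per cell cannot be told apart.

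**Figure D1:**
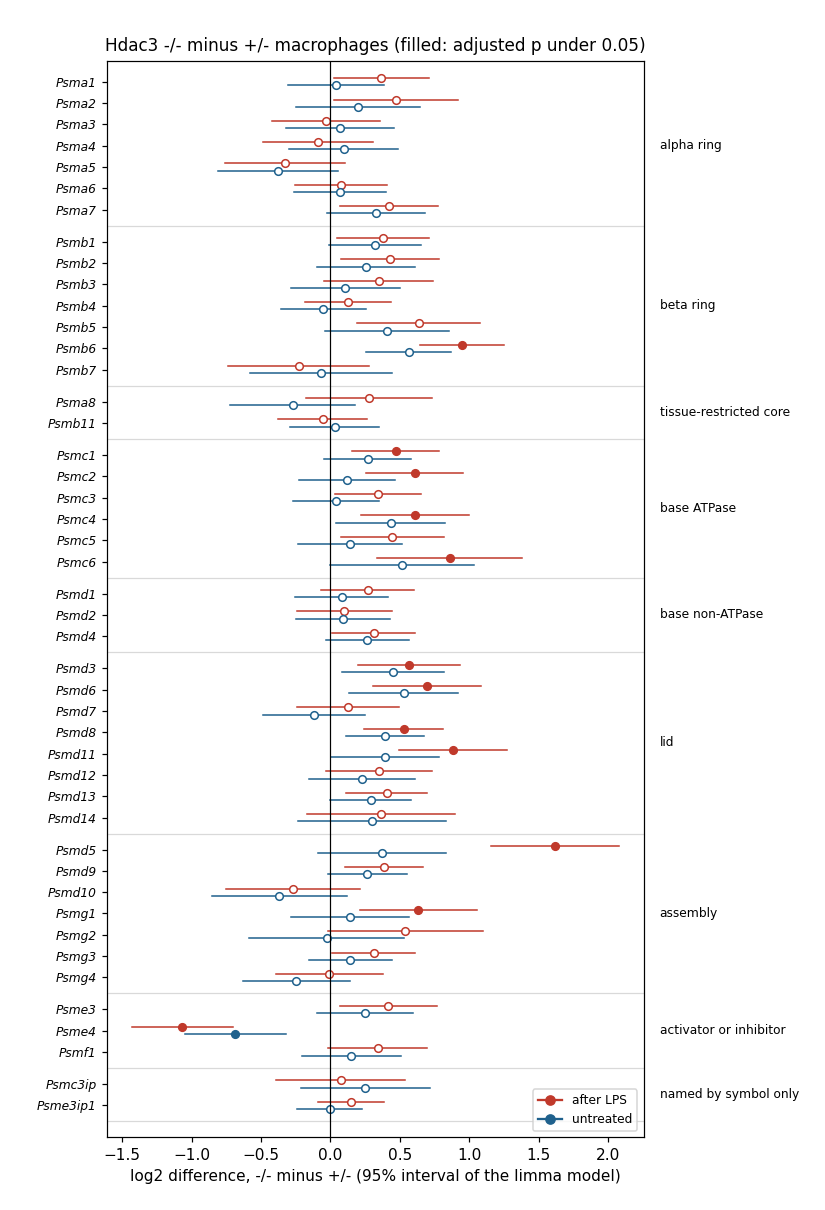
Log2 difference of Hdac3 -/- minus +/- macrophages for each of the 45 genes, after LPS (red) and untreated (blue), grouped by role; bars are 95% intervals of the limma model and filled points passed an adjusted p of 0.05. The filled red points are the 11 higher genes and Psme4, and Psme4 is the 1 filled blue point.

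The count of 11 depended on the arrays. It was 3 without -/- LPS replicate 3, 6 without -/- LPS replicate 1, 7 without -/- LPS replicate 2, and 4 without +/- LPS replicate 2 or without +/- LPS replicate 3. Without both arrays that had Y-linked signal it was 14, with a median of 0.46. After cyclic loess normalization it was 4, with a median of 0.20. The interquartile ranges of the +/- LPS arrays, given above, included the 2 narrowest of all 12 arrays, and their part in the result was not tested. Psmb6, Psmd11, Psmd5 and Psme4 passed under all 21 alternatives that were run for this comparison. The genes with the next smallest adjusted p, Psmd8, Psmd6, Psmc2 and Psmc6, passed in 17, 17, 18 and 16 of them, and Psmc4, Psmd3, Psmg1 and Psmc1 in 14, 13, 11 and 9.

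The 20S core contributed 1 of its 14 ring genes to the count. Psmb6 encodes the caspase-like active site of the core. It read 11.04, 11.05 and 11.04 in -/- macrophages after LPS, against 10.29, 9.86 and 10.13 in +/- macrophages after LPS. The -/- arrays stood above every +/- array, with an SD of 0.01 among themselves. The difference was 0.95 (SE 0.14, adjusted p = 0.000507), or 1.93-fold. Psmb5, the chymotrypsin-like site, read 10.00, 10.13 and 9.95 in -/- macrophages, against 9.32, 9.57 and 9.29 in +/- macrophages. Its groups did not overlap, but the difference of 0.64 (SE 0.21) had an adjusted p of 0.0527. Psmb7, the trypsin-like site, read 10.76, 10.84 and 10.80 in -/- macrophages, against 10.84, 11.53 and 10.72 in +/- macrophages. These overlapped, with a difference of -0.23 (95% interval -0.74 to 0.28, adjusted p = 0.572). The non-catalytic beta subunits Psmb1, Psmb2, Psmb3 and Psmb4 had differences between 0.13 and 0.43, none past the threshold. Of the 7 alpha ring genes, which form the gate of the barrel, 0 passed, and 3 were higher at an unadjusted p under 0.05. Their differences ran from -0.33 (Psma5) to 0.47 (Psma2), with a median of 0.07.

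Of the 5 inducible subunits 4 were lower in -/- macrophages after LPS and 0 were higher. Psmb9, Psmb10 and Psmb8 each take the place of 1 constitutive active site: Psmb9 that of Psmb6, Psmb10 that of Psmb7 and Psmb8 that of Psmb5. Psmb9 read 8.87, 8.72 and 8.71 in -/- macrophages after LPS, against 10.20, 10.33 and 10.17 in +/- macrophages. Psmb10 read 8.84, 8.70 and 8.63 in -/- macrophages, against 9.99, 10.56 and 10.14 in +/- macrophages. Psmb8 read 8.85, 8.75 and 8.80 in -/- macrophages, against 9.89, 9.97 and 9.91 in +/- macrophages. In all 3 the -/- arrays lay more than 1 unit below the lowest +/- array. The differences were -1.46 (SE 0.12), -1.51 (SE 0.19) and -1.13 (SE 0.14), with adjusted p of 4.27e-06, 0.000115 and 0.000105. Psme1 and Psme2 are the subunits of the interferon-inducible cap PA28. Psme1 was lower in -/- than in +/- macrophages by 0.65 on the log2 scale (adjusted p = 0.00562), and Psme2 had a difference of -0.45 (adjusted p = 0.0836). The pair of Psmb6 and Psmb9 passed the test in opposite directions.

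**Figure D2:**
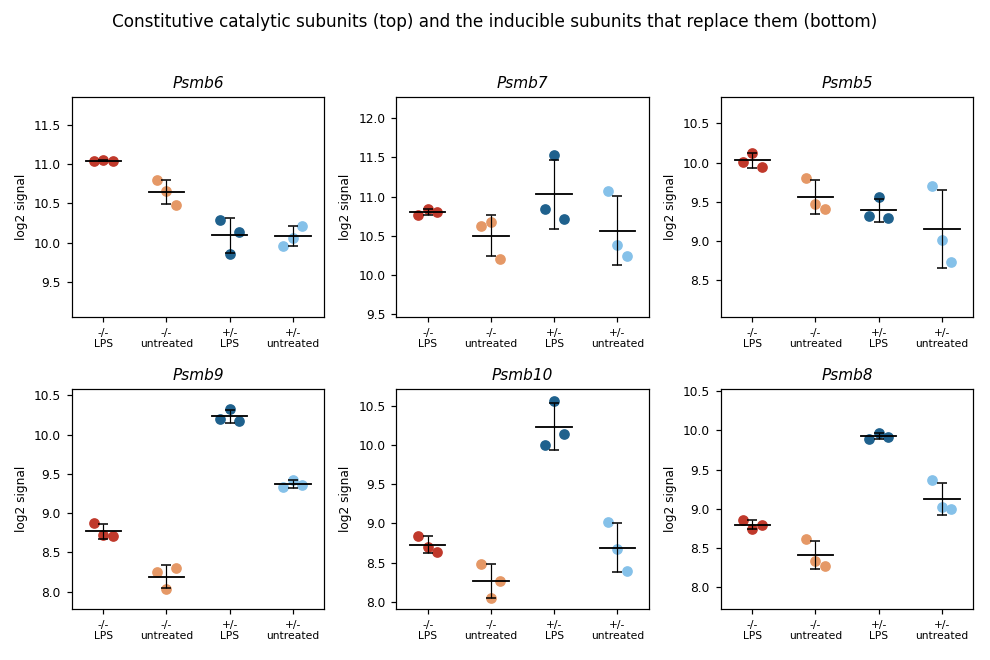
Log2 signal on each array (points) with group mean and SD (bars) for the constitutive active-site subunits (top) and the inducible subunits that replace them (bottom), with -/- left of +/- and LPS left of untreated. Psmb6 sits at 11.04 to 11.05 in -/- macrophages after LPS, above all +/- arrays, while Psmb9, Psmb10 and Psmb8 are highest in +/- macrophages after LPS.

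Of the 17 genes of the 19S particle 8 were higher in -/- macrophages after LPS, and all 17 differences were above 0, with a median of 0.45. Whether the 19S genes differed more than the core genes was not tested. The base ATPases gave 4 of 6. Psmc6 read 9.68, 9.87 and 10.11 in -/- macrophages, against 9.37, 8.70 and 9.01 in +/- macrophages, a difference of 0.86 (SE 0.24, adjusted p = 0.0278). The groups were apart, although +/- LPS replicate 1 came within 0.31 of the lowest -/- array. Psmc2 (0.61), Psmc4 (0.61) and Psmc1 (0.47) were higher with adjusted p of 0.0208, 0.0349 and 0.0424. Psmc3 (0.34) and Psmc5 (0.45) had adjusted p of 0.131 and 0.103. The non-ATPase genes of the base were Psmd1 and Psmd2, which are scaffolds, and Psmd4, a receptor for ubiquitin chains. None of these 3 passed, at 0.27, 0.10 and 0.31, and the arrays of Psmd4 did not overlap.

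The lid gave 4 of 8. Psmd11, a subunit that links the lid to the core, read 9.84, 10.10 and 10.00 in -/- macrophages after LPS, against 9.48, 8.78 and 9.03 in +/- macrophages. Every -/- array was higher, by 0.88 on average (SE 0.18, adjusted p = 0.00474), or 1.85-fold. Psmd6 read 10.14, 10.10 and 10.24 in -/- macrophages, against 9.74, 9.06 and 9.59 in +/- macrophages, a difference of 0.70 (SE 0.18, adjusted p = 0.0190). Psmd3 was higher by 0.56 (SE 0.17, adjusted p = 0.0384) and Psmd8 by 0.53 (SE 0.13, adjusted p = 0.0149), and neither overlapped between the genotypes. Psmd14 is the metalloprotease of the lid that cuts ubiquitin off the substrate. It read 10.38, 10.62 and 10.65 in -/- macrophages, against 10.11, 10.32 and 10.12 in +/- macrophages, a difference of 0.36 (SE 0.25, adjusted p = 0.367). Psmd7, the partner of Psmd14, differed by 0.13, Psmd12 by 0.35 and Psmd13 by 0.41, and none of these passed.

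Among the assembly chaperones, Psmd5 had the largest difference of all 45 genes. Psmd5, Psmd9 and Psmd10 each bind ATPases of the base while it is being built and leave the finished particle. Psmd5 read 8.86, 8.82 and 9.26 in -/- macrophages after LPS, against 7.82, 7.16 and 7.12 in +/- macrophages after LPS. The lowest -/- array was 1.0 above the highest +/- array. The difference was 1.62 (SE 0.22, adjusted p = 0.000204), or 3.07-fold. Psmd9 (0.39, adjusted p = 0.0644) and Psmd10 (-0.27, adjusted p = 0.467) did not pass. Psmg1 to Psmg4 pair up to guide alpha rings together. Psmg1 read 7.73, 7.45 and 8.02 in -/- macrophages, against 7.47, 6.95 and 6.87 in +/- macrophages. It passed with a difference of 0.63 (SE 0.20, adjusted p = 0.0437), with +/- LPS replicate 1 inside the -/- range. Psmg2 (0.54), its partner, Psmg3 (0.31) and Psmg4 (-0.01) did not pass.

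Psme4 was the 1 gene that was lower. It encodes PA200, a nuclear cap of the core that is known for the degradation of acetylated histones. Psme4 read 8.09, 8.03 and 8.02 in -/- macrophages after LPS, against 9.37, 8.66 and 9.31 in +/- macrophages after LPS. All 3 -/- arrays lay below the lowest +/- array. The difference was -1.07 (SE 0.17, adjusted p = 0.000839). Psme3, the nuclear cap PA28 gamma, read 9.52, 9.40 and 9.62 in -/- macrophages, against 9.18, 9.06 and 9.03 in +/- macrophages, a difference of 0.42 (SE 0.16, adjusted p = 0.101). Psmf1, which encodes PI31 and blocks the core in vitro, differed by 0.34 (adjusted p = 0.192). Psma8 (0.28), Psmb11 (-0.05), Psmc3ip (0.07) and Psme3ip1 (0.15) did not pass.

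**Figure D3:**
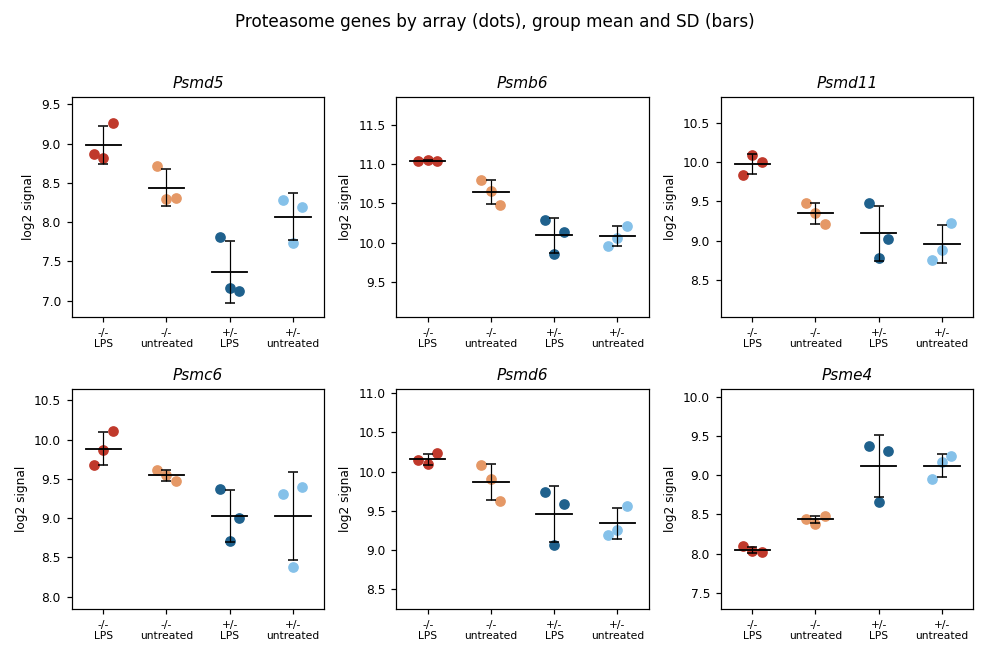
Log2 signal on each array (points) with group mean and SD (bars) for 6 of the genes that differed between genotypes after LPS; each panel spans the same number of units but starts elsewhere. Psmd5, Psmb6, Psmd11, Psmc6 and Psmd6 are highest in -/- macrophages after LPS, and Psme4 is lowest there, at 8.02 to 8.09.

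The promoters of the 4 genes that passed under every alternative are given here, with the stretch from 250 bases before to 50 after the start of transcription as RefSeq has it on GRCm38.p6. Capitals mark matches on either strand to TGACNNNGC, the core of the antioxidant response element that Nfe2l1 and Nfe2l2 bind or to CCAAT, the box bound by NF-Y. The first is from Psmb6 at chr11:70525107-70525406 on the plus strand, the next from Psmd11 at chr11:80428365-80428664 on the plus strand. Psmd5 lies at chr2:34870913-34871212 on the minus strand and Psme4 at chr11:30771525-30771824 on the plus strand.
Psmb6: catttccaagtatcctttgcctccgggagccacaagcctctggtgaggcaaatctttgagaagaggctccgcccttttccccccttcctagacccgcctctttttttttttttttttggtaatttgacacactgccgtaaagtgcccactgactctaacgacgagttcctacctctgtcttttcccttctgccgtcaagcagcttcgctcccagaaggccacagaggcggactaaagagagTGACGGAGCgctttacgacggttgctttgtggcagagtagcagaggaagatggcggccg
Psmd11: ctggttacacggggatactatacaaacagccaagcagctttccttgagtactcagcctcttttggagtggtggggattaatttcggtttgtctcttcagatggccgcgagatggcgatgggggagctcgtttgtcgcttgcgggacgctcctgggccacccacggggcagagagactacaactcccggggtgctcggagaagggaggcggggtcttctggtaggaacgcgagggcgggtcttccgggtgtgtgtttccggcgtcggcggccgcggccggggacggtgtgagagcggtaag
Psmd5: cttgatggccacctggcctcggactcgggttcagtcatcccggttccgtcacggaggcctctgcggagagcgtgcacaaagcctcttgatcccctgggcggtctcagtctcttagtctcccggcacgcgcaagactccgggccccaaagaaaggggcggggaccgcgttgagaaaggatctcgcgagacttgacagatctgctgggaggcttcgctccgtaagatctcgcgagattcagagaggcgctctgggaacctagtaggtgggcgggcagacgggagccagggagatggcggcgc
Psme4: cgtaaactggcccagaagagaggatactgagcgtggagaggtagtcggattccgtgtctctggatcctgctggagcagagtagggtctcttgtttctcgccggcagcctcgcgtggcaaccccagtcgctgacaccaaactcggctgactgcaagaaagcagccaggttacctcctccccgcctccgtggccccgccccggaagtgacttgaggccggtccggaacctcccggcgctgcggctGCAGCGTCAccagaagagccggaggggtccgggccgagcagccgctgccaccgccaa
Psmb6 held 1 TGACNNNGC match, which began 9 bases before the start, and Psme4 held 1 on the other strand, which began 7 bases before it. The windows of Psmd11 and Psmd5 held neither pattern. RefSeq promoters were found for 37 of the 45 genes. TGACNNNGC stood in 6 of the 37 (Psmb5, Psmb6, Psmc6, Psmd12, Psmd9 and Psme4), or 16.22%, against 13.99% of 27025 genes in the table. CCAAT stood in 15, or 40.54%, against 41.06%. These matches describe the letters in the window and do not show binding.

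Other lists of genes around the proteasome are set here against the same shares of all genes, 9.69% higher and 5.99% lower. In the brightest 25% of all genes the shares were 17.2% and 11.8%, with a median difference of 0.14. The lists were not matched to all genes by signal. Of 10 factors that bind or help build the proteasome 4 were higher: Zfand2a (1.42, adjusted p = 7.58e-05), Usp14 (0.78), Txnl1 (0.73) and Ecpas (0.64). Usp14 is a deubiquitinase on the base, and Ecpas is an adaptor that holds core and cap together. Of 6 receptors that carry ubiquitinated proteins to the proteasome or to autophagy 4 were higher, namely Sqstm1 (1.45, adjusted p = 0.00173), Rad23b (0.99), Ubqln2 (0.66) and Ubqln4 (0.64). Of 10 genes of the unfoldase Vcp and its cofactors Ubxn1 was higher (0.86, adjusted p = 0.000764). Uba6, the 1 measured gene of the list of ubiquitin genes and activating enzymes, was lower (-0.59, adjusted p = 0.0231).

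Regulators of proteasome genes differed in both directions. Of 12 such genes 4 were higher and 2 were lower. Nfe2l2, the factor of the oxidative stress response, read 11.24, 11.52 and 11.46 in -/- macrophages after LPS, against 10.11, 10.18 and 10.22 in +/- macrophages, more than 1 unit apart on every array. The difference was 1.24 (SE 0.19, adjusted p = 0.000582). Keap1, which holds Nfe2l2 back, was lower (-0.88, adjusted p = 0.00509). Mafg, a small Maf partner of Nfe2l2, was higher (0.95), and Mafk, another, was lower (-1.59, adjusted p = 8.55e-05). Hsf2, a heat shock factor, was higher (1.02), as was Nfyc (0.66), a subunit of NF-Y. Nfe2l1, the factor that raises proteasome genes when the proteasome is inhibited, read 9.94, 10.04 and 9.69 in -/- macrophages, against 9.91, 9.17 and 8.99 in +/- macrophages. It overlapped and did not pass, at 0.53 (SE 0.24, adjusted p = 0.163). The COP9 signalosome and the initiation factor eIF3 share the architecture of the lid, and of 17 of their genes 6 were higher and all 17 differences were above 0, with a median of 0.44. They included Eif3l (0.70, adjusted p = 0.0101), Gps1 (0.59), Eif3c (0.55) and Eif3a (0.54).

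In untreated macrophages Psme4 was the 1 gene that passed between the genotypes. Of the 45 genes 0 were higher and 1 was lower, against 1.22% and 1.44% of all genes. At an unadjusted p under 0.05 these were 6 and 1, against 1366 and 1168 of all 19945 genes. The median difference was 0.14, against 0.01 over all genes, and 35 were above 0, against 10437 of all genes. The arrays did not overlap for 9 genes that were higher and 1 that was lower in -/- macrophages, against 9.64% and 8.35% of all genes. The lower gene was Psme4, at 8.45, 8.38 and 8.48 in untreated -/- macrophages, against 8.95, 9.16 and 9.25 in untreated +/- macrophages. The arrays lay apart by 0.47 at the least. Its difference of -0.68 (SE 0.17) had an adjusted p of 0.04999, and it passed in 7 of 21 alternatives. It did not pass when any of the 6 untreated arrays, any of the 3 -/- LPS arrays or +/- LPS replicate 3 was left out.

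Psmb6 was the gene with the next smallest p in untreated macrophages. It read 10.79, 10.66 and 10.48 in -/- macrophages, against 9.96, 10.06 and 10.22 in +/- macrophages. The groups did not overlap. The difference of 0.56 (SE 0.14) had an adjusted p of 0.0525. It passed in 5 of 21 alternatives, among them those without +/- LPS replicate 1 and without +/- LPS replicate 2. Psmb5 and Psmb7 differed by 0.41 and -0.07, Psmd5 by 0.37 (adjusted p = 0.553) and Psmd11 by 0.40 (adjusted p = 0.379). Psmd14 differed by 0.30, Psmd4 by 0.27, Psme3 by 0.25, Psmf1 by 0.15, Psma8 by -0.27, and Psmg1, Psmg2, Psmg3 and Psmg4 by 0.14, -0.03, 0.14 and -0.24, none past the threshold. Of the inducible subunits Psmb9 (-1.18, adjusted p = 7.89e-05) and Psmb8 (-0.72, adjusted p = 0.0108) were lower, while Psmb10 (-0.43), Psme1 (-0.33) and Psme2 (-0.55) did not pass. Nfe2l2 (0.91, adjusted p = 0.0173) and Ubxn1 (0.74, adjusted p = 0.00792) were higher, and 0 of the COP9 and eIF3 genes passed, with 2 higher at an unadjusted p under 0.05.

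LPS raised a pair of proteasome genes in both genotypes, the alpha ring gene Psma6 and the chaperone gene Psmd10. The comparisons of LPS with untreated and of -/- with +/- share arrays, so their values are given side by side and not related to each other. Psma6 read 10.63, 10.58 and 10.71 in -/- macrophages after LPS, against 9.89, 10.04 and 9.74 in untreated -/- macrophages. In +/- macrophages it read 10.68, 10.46 and 10.56 after LPS, against 10.17, 9.62 and 9.68 untreated. Neither genotype showed an overlap. The LPS difference was 0.75 (SE 0.15, adjusted p = 0.00678) in -/- and 0.74 (SE 0.15, adjusted p = 0.00294) in +/- macrophages, or 1.68-fold in each.

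Psmd10, known as gankyrin, read 10.05, 10.12 and 10.15 in -/- macrophages after LPS, against 9.30, 8.56 and 9.36 in untreated -/- macrophages. In +/- macrophages it read 10.21, 10.79 and 10.14 after LPS, against 9.65, 9.54 and 9.12 untreated. Each LPS array stood above each untreated array of its genotype. The difference was 1.04 (SE 0.23, adjusted p = 0.00948) in -/- and 0.94 (SE 0.23, adjusted p = 0.00734) in +/- macrophages. Both genes passed in both genotypes under all 22 alternatives. The promoter of Psmd10, at chrX:140956662-140956961 on the minus strand of GRCm38.p6, is shown with its 3 CCAAT matches (2 of them on the other strand) in capitals.
Psmd10: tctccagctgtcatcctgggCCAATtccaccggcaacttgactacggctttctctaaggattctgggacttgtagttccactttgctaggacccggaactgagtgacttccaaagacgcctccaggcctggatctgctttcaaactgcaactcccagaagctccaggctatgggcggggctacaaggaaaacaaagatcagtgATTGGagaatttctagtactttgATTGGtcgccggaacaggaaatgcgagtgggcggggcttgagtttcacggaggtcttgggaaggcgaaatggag

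**Figure D4:**
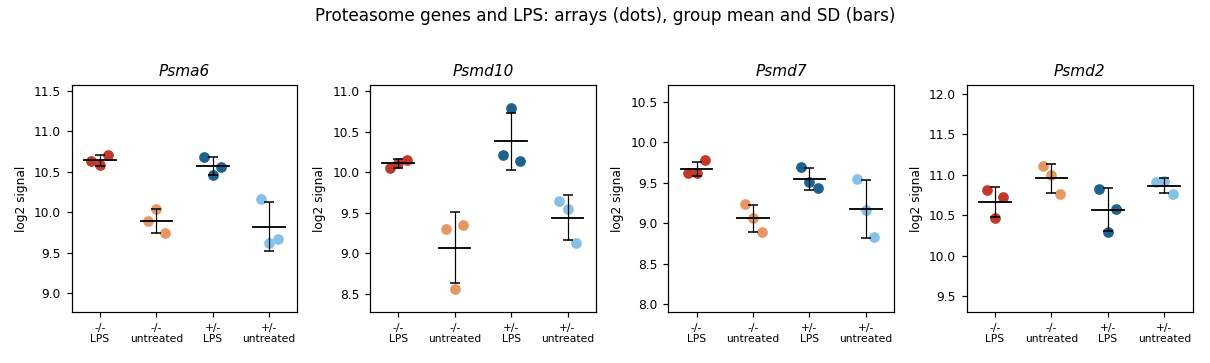
Log2 signal on each array (points) with group mean and SD (bars) for Psma6 and Psmd10, which were higher after LPS in both genotypes, for Psmd7, which passed in -/- macrophages, and for Psmd2, which passed in neither; -/- is left of +/- and LPS left of untreated. The LPS points of Psma6 and Psmd10 lie above the untreated points of the same genotype.

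In -/- macrophages 4 of the 45 genes were higher after LPS and 0 were lower, against 3.69% and 5.18% of all genes. At an unadjusted p under 0.05 these were 12 and 1, against 1594 and 2408 of all 19945 genes. The median difference was 0.21, against 0.02 over all genes and -0.08 over the brightest 25%. The arrays of LPS and untreated cells did not overlap for 22 genes that were higher and 1 that was lower, against 12.6% and 15.7% of all genes. The 4 genes that passed were Psmd10, Psma6 and the lid genes Psmd11 and Psmd7. Psmd11 read 9.84, 10.10 and 10.00 after LPS, against 9.48, 9.35 and 9.21 untreated, a difference of 0.63 (SE 0.18, adjusted p = 0.0445). Psmd7 read 9.62, 9.62 and 9.78 after LPS, against 9.24, 9.06 and 8.90 untreated, a difference of 0.61 (SE 0.17, adjusted p = 0.0398). The groups of both were apart, but neither passed when any 1 of the 6 -/- arrays was left out, which left a count of 2 each time. Over all genes these fits gave 521 to 647 higher, against 736 in the main fit. Psmd11 was also lost without +/- LPS replicate 3, with an intensity trend and with either replicate block. It passed in 12 of 22 alternatives, and Psmd7 in 16.

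The other named genes did not pass in -/- macrophages. Psmb5, Psmb6 and Psmb7 differed by 0.46, 0.40 and 0.30 after LPS, each with arrays apart and adjusted p of 0.223, 0.108 and 0.571. Psmd5 differed by 0.54 (adjusted p = 0.159), Psmd14 by 0.49, Psmd4 by 0.21, Psme3 by 0.22 and Psmf1 by 0.11. Psmg3 differed by 0.39, and Psmg1, Psmg2 and Psmg4 by 0.09, -0.04 and -0.05. Psme4 differed by -0.39 (adjusted p = 0.212) and was the 1 gene whose arrays lay apart downward. Of the inducible subunits Psme2 (0.89, adjusted p = 0.00372) and Psmb9 (0.58, adjusted p = 0.00807) were higher, while Psmb8 (0.39), Psmb10 (0.46) and Psme1 (0.24) did not pass. Ecpas (0.78), Txnl1 (0.63) and Zfand5 (0.98), a zinc finger protein that activates the proteasome, were higher, and Zfand2a was lower (-0.72). Maff was higher (0.89), Bach1, a repressor at antioxidant response elements, was lower (-0.74), and the autophagy receptor Nbr1 was lower (-0.94).

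**Figure D5:**
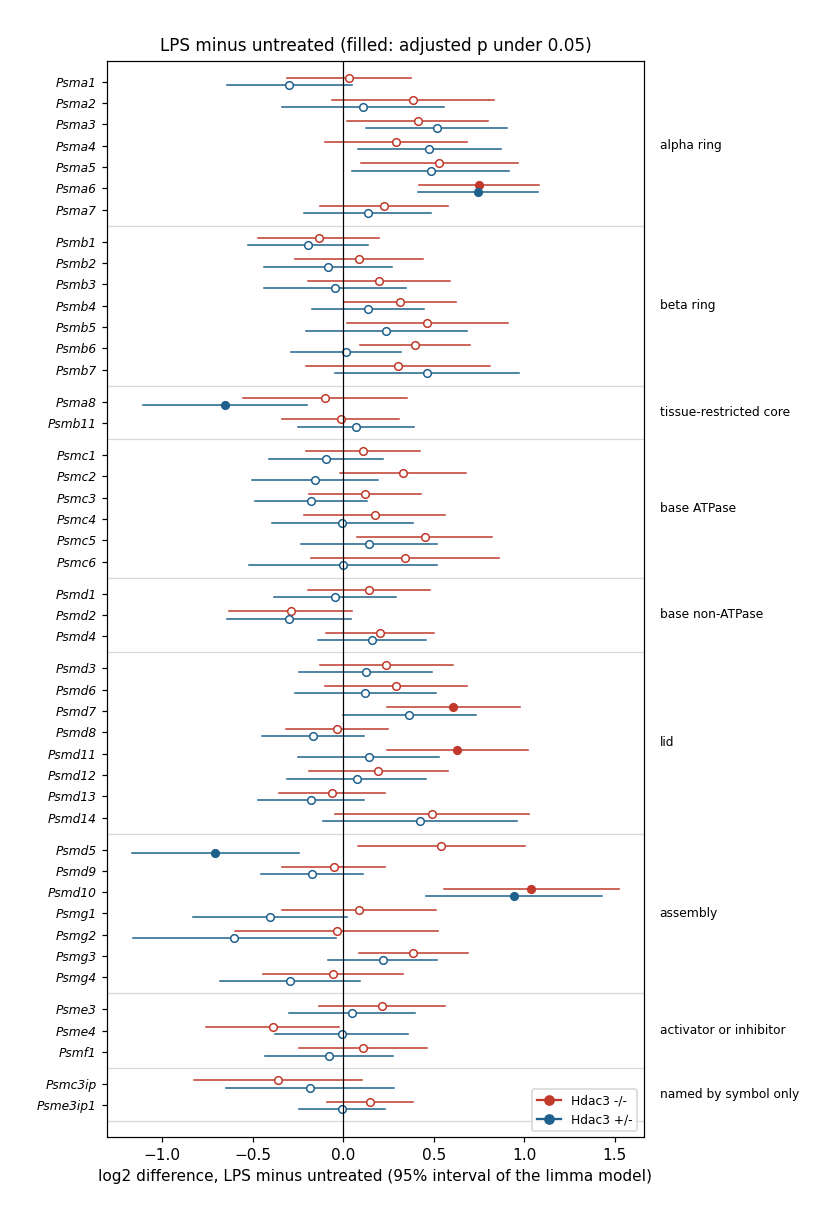
Log2 difference of LPS minus untreated for each of the 45 genes in Hdac3 -/- (red) and +/- (blue) macrophages, grouped by role; bars are 95% intervals of the limma model and filled points passed an adjusted p of 0.05. Psma6 and Psmd10 are filled in both genotypes, and Psmd5 is filled in +/- macrophages at -0.70.

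In +/- macrophages 2 genes were higher after LPS, Psmd10 and Psma6, and 2 were lower, Psmd5 and Psma8, against 9.59% and 15.5% of all genes. At an unadjusted p under 0.05 these were 5 and 3, against 3500 and 4137 of all 19945 genes. The median difference was -0.00071, against 0.08 over all genes and -0.19 over the brightest 25%. The arrays did not overlap for 3 genes that were higher and 1 that was lower, against 18.1% and 18.6% of all genes. Psmd5 read 7.82, 7.16 and 7.12 in +/- macrophages after LPS, against 8.28, 7.73 and 8.19 untreated. The highest LPS array overlapped the lowest untreated one, and the difference was -0.70 (SE 0.22, adjusted p = 0.0279). Psma8 read 4.26, 3.80 and 4.06 after LPS, against 5.14, 4.24 and 4.68 untreated, a difference of -0.65 (SE 0.21, adjusted p = 0.0367) on a dim probe set.

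These counts also depended on the arrays. They come from the main model, which did not treat arrays of a number as pairs. With the replicate number as a block within each genotype 3 genes were higher and 2 lower, against 2049 and 3429 of all genes. The third higher gene was Psma3 (0.52, adjusted p = 0.0455 with the block and 0.0511 without it). Without +/- untreated replicate 1, which had Y-linked signal, 9 genes were higher and 0 lower, against 1499 and 2630 of all genes. Without both such arrays 8 were higher and 1 was lower, against 1917 and 2978 of all genes. Of all genes 2305, 2420 and 2246 were lower without +/- untreated replicate 3, +/- LPS replicate 2 and +/- LPS replicate 3, against 3085 in the main fit. Without -/- untreated replicate 1 this was 2835, and without +/- LPS replicate 1 it was 3385. Among the 45 the count of lower genes was 0 without +/- untreated replicate 3, +/- LPS replicate 2 or +/- LPS replicate 3. It was 1 without -/- untreated replicate 1 and 4 without +/- LPS replicate 1. Psmd5 was lost in the first 3 of these and without +/- untreated replicate 1, and Psma8 in those and without -/- untreated replicate 1. The difference of Psma8 was -0.42 without +/- untreated replicate 1. That array read highest of its group for 29 of the 45 genes, and +/- LPS replicate 1 for 30.

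The active-site genes did not pass in +/- macrophages: Psmb5, Psmb6 and Psmb7 differed by 0.24, 0.01 and 0.46. Psmd11 differed by 0.14 and Psme4 by -0.01 (adjusted p = 0.976). Psmg1 (-0.41), Psmg2 (-0.60) and Psmg4 (-0.29) had values below 0 and Psmg3 one of 0.22, with none past the threshold. Psmd14 differed by 0.43, Psmd4 by 0.16, Psme3 by 0.05 and Psmf1 by -0.08. All 5 inducible subunits were higher: Psmb10 (1.54, adjusted p = 4.92e-05), Psmb9 (0.86), Psmb8 (0.80), Psme2 (0.79) and Psme1 (0.57). Among the genes around the proteasome Zfand5 (1.28) was higher, and Zfand2a (-1.91) and the deubiquitinase gene Uchl5 (-1.0) were lower. Mafk (1.90), Maff (1.07) and Keap1 (0.69) were higher and Ngly1 (-0.59), an enzyme that matures Nfe2l1, was lower. Nbr1 (-1.67), Ubqln2 (-0.87), Ubqln4 (-0.60) and the Vcp cofactor gene Faf1 (-0.88) were lower, as were Cops3 (-0.69) and Eif3a (-0.52).

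Whether the LPS response itself differed between the genotypes was tested as the difference of both LPS differences, -/- minus +/-. Of the 45 genes 0 passed in either direction, against 0.306% and 0.777% of all genes. Against 1151 of all 19945 genes, 1 of the 45 was higher at an unadjusted p under 0.05. That gene was Psmd5, with LPS differences of 0.54 in -/- and -0.70 in +/- macrophages and an interaction of 1.25 (SE 0.30, adjusted p = 0.0712). Over the alternatives its adjusted p ran between 0.0222 and 0.202. It passed with the replicate number as a block within genotype (0.0349), with array weights, without +/- LPS replicate 1 (0.0222) and without both arrays of Y-linked signal. The next smallest p was that of Psmc2 (0.48, adjusted p = 0.442). The median over the 45 genes was 0.17, against -0.02 over all genes and 0.12 over the brightest 25%. The 11 genes that passed between the genotypes after LPS are therefore not shown to respond to LPS differently in -/- macrophages. Of the genes around the proteasome, Zfand2a and Mafk passed this test.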

How the data were processed

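RNA of the 12 macrophage samples was hybridised to Affymetrix whole-transcript gene arrays. RMA and affy are named in the submitters' processing notes, so the log2 values deposited by the authors were read as RMA summaries, 1 per probe set. Versions, settings, chip file and build: not given in the sources used here. Precision is limited by 3 arrays per group. Of 28193 probe sets 21648 had 1 symbol, and the brightest per symbol gave 19945 genes. A limma 3.58.1 model (R 4.3.3) with 1 mean per group was fitted to all 12 arrays, with Benjamini-Hochberg adjustment over all genes in each of 5 contrasts. Tables and figures used Python 3.11.15, pandas 2.3.3, numpy 2.4.6 and matplotlib 3.10.9. The code was tested on simulated data. Genes to name were the catalytic, tissue-restricted, regulatory, chaperone and ubiquitin-handling genes, up to 8 per direction with the largest change among those that passed, and up to 4 per list. Members and lists were chosen with earlier results of these data known. Alternatives changed the normalization, weights, trend, filter, probe set choice, arrays and replicate block. Same-numbered +/- arrays deviated from their group means together (r between 0.22 and 0.33 over genes, against -0.30 to 0.11 for different numbers). Same-numbered -/- arrays did not (-0.12 to 0.20). The main model had no pairs, and an alternative took the numbers as a block within both genotypes.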

Additional observations from a re-analysis of the deposited data

Results flagged for a closer look

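A pair of genes around the proteasome passed the test of a difference between the LPS responses of the genotypes, that is, of the interaction of genotype and LPS. Zfand2a, which encodes an arsenite-inducible protein that binds the proteasome, read 8.98, 9.05 and 9.42 in -/- macrophages after LPS, against 9.89, 10.06 and 9.66 in untreated -/- macrophages. In +/- macrophages it read 7.91, 7.80 and 7.48 after LPS, against 9.51, 9.58 and 9.82 untreated. It was lower after LPS in both genotypes, and the interaction was 1.19 (SE 0.24, adjusted p = 0.0293, limma).

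Mafk, a small Maf protein that pairs with Nfe2l2 and Bach1, read 7.27, 6.92 and 7.22 in -/- macrophages after LPS, against 6.92, 6.39 and 6.96 in untreated -/- macrophages. In +/- macrophages it read 9.0, 8.57 and 8.62 after LPS, against 6.86, 7.05 and 6.57 untreated. The interaction was -1.52 (SE 0.27, adjusted p = 0.0138, limma).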

How the results depend on the processing

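Precision is limited by 3 arrays per group, and a group of 3 is too small to single out an array. Of the genes named among the 45, 0 changed direction after a call under any alternative. With array weights 7 genes were higher and 1 lower after LPS in -/- macrophages, 3 were higher in untreated -/- than +/- macrophages, and 1 passed the interaction. Over all genes the weights gave 1800 higher and 2624 lower after LPS in -/- macrophages, against 736 and 1033 in the main fit. Between the untreated genotypes they gave 624 higher and 562 lower over all genes, against 243 and 288 in the main fit. In the interaction they gave 270 higher and 322 lower, against 61 and 155 in the main fit. With only the groups compared in the model, 1 gene was lower after LPS in -/- and 0 in +/- macrophages, against 1456 and 2341 of all genes. Quantile normalization left 1 gene lower after LPS in +/- macrophages, against 2685 of all genes. Cyclic loess gave 6 higher and 1 lower there, with a median of 0.19, against 1905 and 2294 of all genes. Between the genotypes after LPS it gave 4 higher genes, with a median of 0.20, against 1266 of all genes. Without dim genes 1 gene was lower after LPS in +/- macrophages, against 3114 of all genes kept. Between the untreated genotypes that filter gave 1 higher, against 262 of all genes kept. An intensity trend gave 1 higher and 0 lower between the untreated genotypes, against 224 and 282 of all genes. The mean of all probe sets gave 0 lower there, against 287 of all genes. With the replicate number as a block over all groups that count was 0 as well, against 288 of all genes. With the replicate block within genotype 1 gene, Psmd5, passed the interaction, against 107 higher and 205 lower of all genes. Psmd11 was lost with that block after LPS in -/- macrophages. That block was not run for the genotype differences, which it confounds, nor the model of the compared groups for the interaction. Both arrays of Y-linked signal were also left out, a choice made after seeing the data. After LPS in +/- macrophages 8 genes were then higher and 1 lower, against 1917 and 2978 of all genes. Between the untreated genotypes 0 were lower, against 234 of all genes. In the interaction 1 passed, against 110 higher and 119 lower of all genes. Leaving out 1 array at a time gave 3 to 12 higher genes between the genotypes after LPS, against 910 to 2176 of all genes. Untreated it gave 0 to 1 higher and 0 to 1 lower, against 99 to 265 and 167 to 341 of all genes. After LPS it gave 2 to 5 higher in -/- macrophages, against 521 to 790 of all genes. In +/- macrophages it gave 2 to 9 higher and 0 to 4 lower after LPS, against 1331 to 2598 and 2246 to 3385 of all genes. In the interaction it gave 0 to 1 higher, against 19 to 174 of all genes. The cause of these shifts was not tested. Without Psmc3ip and Psme3ip1, also chosen after seeing the data, no count of calls moved.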

Other observations

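The median signal over the 45 genes was 9.50, 9.53 and 9.68 on the -/- LPS arrays and 9.34, 9.34 and 9.08 on the untreated -/- arrays. It was 9.37, 8.96 and 9.03 on the +/- LPS arrays and 9.21, 8.94 and 9.07 on the untreated +/- arrays. One array read highest of its group for most of the genes: -/- LPS replicate 3 for 32 of 45, untreated -/- replicate 1 for 32, +/- LPS replicate 1 for 30 and untreated +/- replicate 1 for 29. The median SD of a gene within its group was 0.12 for -/- LPS and 0.16 for untreated -/-, against 0.22 for +/- LPS and 0.24 for untreated +/-.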
